A study of Mus musculus with 55 samples.

Results

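The imprinted growth genes described here are 10 genes, Mest, Nnat, Plagl1, Peg3, Dlk1, Cdkn1c, Grb10, Igf2, H19 and Sgce, out of 31933 genes in the count tables of 3 mouse fat depots. They were chosen by name, through their Ensembl identifiers. The rule itself uses no measured value, but the members were chosen with earlier results of these data known. The depots were interscapular brown adipose tissue (iBAT), gonadal white adipose tissue (goWAT) and subcutaneous white adipose tissue (scWAT). All animals were male C57BL/6NRj mice of 10 weeks that received corticosterone in the drinking water (GC) or placebo (Ctrl) for 4 weeks. Corticosterone is the main glucocorticoid of mice. During that time they were kept at 22 °C or at 13 °C, so each depot had 4 groups and the series had 12. In iBAT the Ctrl group at 22 °C had 3 libraries and the other 3 groups had 5 each. In goWAT the same Ctrl group had 4 and the others 5 each. In scWAT there were 4 Ctrl and 5 GC libraries at 22 °C, and 5 Ctrl and 4 GC libraries at 13 °C. RNA came from areas cut out of cryosections by laser capture microdissection, and full-length libraries were made with the SMARTSeq2 protocol from a very small amount of RNA. The question of the series is how housing temperature alters the action of a glucocorticoid on the 3 depots.

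An imprinted gene is expressed mainly from the allele of 1 parent, because the other allele was marked, usually by DNA methylation, in the germ line. Many such genes act on growth before birth and are turned down afterwards, and in fat several of them are known to act on precursor cells, on adipocyte size or on insulin signalling. Mest, Nnat, Plagl1, Peg3, Dlk1, Igf2 and Sgce are known as genes of the paternal allele. Cdkn1c and H19 are expressed from the maternal allele, as is Grb10 in most tissues outside the brain. Gene counts do not tell the alleles apart, so the values below are sums over both.

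The depth of the 55 libraries was 14043773 to 35790654 counts for iBAT, 12310822 to 53121372 counts for goWAT and 8622178 to 56450653 counts for scWAT. Adipoq, the gene of the fat-cell hormone adiponectin, was high in each of them, at 616 to 8693 CPM, the usual unit of counts scaled to the total of a library. Ucp1, which marks brown fat, stood at 1427 to 16296 CPM in iBAT and at up to 547 in goWAT and 989 in scWAT. Some libraries stood apart by transcripts of other tissues. The summed level of 11 epithelial and epididymal markers was 73.9 to 316 CPM in 3 of the 4 scWAT GC libraries at 13 °C and 84.3 CPM in 1 Ctrl library at 13 °C, against 0.177 to 6.07 CPM in the other scWAT libraries. In 2 scWAT GC libraries at 22 °C, 14 macrophage markers summed to 11239 and 7367 CPM, against 743 to 1731 CPM in the other 3. In 3 iBAT libraries 14 skeletal muscle markers summed to 579.5 to 1459 CPM, and 1 iBAT GC library at 22 °C held 5972 CPM of macrophage markers. The muscle markers reached 2762 CPM among the scWAT GC libraries at 22 °C. In goWAT the epithelial and epididymal markers ran from 7.35 to 3504 CPM in Ctrl at 13 °C and from 7.34 to 1307 in GC at 22 °C. There 10 brown adipocyte markers summed to 30.8 to 1284 CPM in GC at 22 °C and 20.6 to 1889.6 in GC at 13 °C. These are bulk samples, so fewer cells of a type and less RNA per cell cannot be told apart. Animals are not given per library in the labels, so the p-values measure the spread between libraries and are too small if captures of a group came from the same animal.

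The positions of the members and, for those with the largest responses to corticosterone, the sequences just before their starts are given first. Nnat (chr2:157560078-157562522 on the plus strand, GRCm38) overlaps Blcap, which is read from the other strand. Mest (chr6:30723547-30748465, plus strand) overlaps Copg2 on the other strand and hosts Mir335. Plagl1 lies at chr10:13060504-13131694 on the plus strand and Peg3 at chr7:6703892-6730431 on the minus strand. Dlk1 (chr12:109452823-109463336, plus strand), Grb10 (chr11:11930508-12038683, minus strand) and Sgce (chr6:4674350-4747207, minus strand) overlap no other annotated gene. Cdkn1c (chr7:143458339-143461050), Igf2 (chr7:142650766-142666816) and H19 (chr7:142575529-142578143) lie on the minus strand of the same part of chromosome 7. The library protocol marks no strand, so reads of Nnat and Blcap, or of Mest and Copg2, cannot be told apart where the genes overlap.

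RefSeq's table of promoters for GRCm38.p6 has an entry for 7 of the 10 members. The 250 bases before the start are shown for the 4 members that rose most clearly in scWAT, so that their CG content can be compared. The motif AGAACA, part of the element that the glucocorticoid receptor binds, and its reverse complement TGTTCT were searched, and a match is in capitals.
Nnat chr2:157559828-157560077 plus strand: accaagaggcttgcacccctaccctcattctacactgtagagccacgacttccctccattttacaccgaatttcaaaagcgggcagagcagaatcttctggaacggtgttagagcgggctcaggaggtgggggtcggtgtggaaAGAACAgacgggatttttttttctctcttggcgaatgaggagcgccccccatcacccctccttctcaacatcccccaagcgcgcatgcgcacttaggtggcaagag
Plagl1 chr10:13090582-13090831 plus strand: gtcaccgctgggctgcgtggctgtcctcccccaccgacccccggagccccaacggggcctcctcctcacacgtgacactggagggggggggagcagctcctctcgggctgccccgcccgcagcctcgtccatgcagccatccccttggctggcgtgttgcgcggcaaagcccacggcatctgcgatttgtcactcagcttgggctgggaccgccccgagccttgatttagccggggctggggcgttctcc
Peg3 chr7:6730420-6730669 minus strand: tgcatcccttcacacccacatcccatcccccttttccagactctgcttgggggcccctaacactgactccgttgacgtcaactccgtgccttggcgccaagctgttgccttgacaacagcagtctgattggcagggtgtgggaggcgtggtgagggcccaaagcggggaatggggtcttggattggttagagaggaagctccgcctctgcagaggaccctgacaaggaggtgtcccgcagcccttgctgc
Mest chr6:30737800-30738049 plus strand: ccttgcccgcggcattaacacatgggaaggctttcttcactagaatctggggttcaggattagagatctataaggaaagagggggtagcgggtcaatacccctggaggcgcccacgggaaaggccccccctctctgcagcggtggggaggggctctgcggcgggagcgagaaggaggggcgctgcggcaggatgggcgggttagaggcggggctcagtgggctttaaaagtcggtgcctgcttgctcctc
The Nnat window held 1 match, 106 bases before the start, and the other windows shown held 0. Among all 32851 promoter windows of this length, 16.1% held the motif. The windows shown held 12 CG pairs in Nnat, 19 in Plagl1, 8 in Peg3 and 14 in Mest, against a median of 6 over all windows. Mest has other windows, not shown, with 7 CG pairs at chr6:30733256-30733505 and 14 at chr6:30737803-30738052. Windows of members not called for corticosterone, also not shown, held 8 CG pairs in Dlk1, 8 and 40 in Grb10, and 6, 22, 10 and 1 in Igf2. The Igf2 window at chr7:142666817-142667066 held 1 match as well, 85 bases before its start, so neither trait is particular to the members shown. A match describes these letters and does not show binding.

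Across depots the members fell into genes that were low in iBAT, genes at a similar median level everywhere and genes near the limit of detection. Per kilobase of exon, Nnat was the most abundant member in every depot, with medians of 16.7 CPM per kb in iBAT, 441 in goWAT and 333 in scWAT. Neuronatin, its product, is a small membrane protein of the endoplasmic reticulum that is found in neurons, endocrine cells and fat. Cdkn1c followed in iBAT and scWAT, at 6.89 and 6.57 CPM per kb, and in goWAT it stood at 6.32, below Mest at 22.3. Mest, an enzyme-like protein known to rise when mouse fat expands, was at 0.457 CPM per kb in iBAT and 2.40 in scWAT. Plagl1, a zinc finger transcription factor that can halt the cell cycle, had medians of 0.137, 4.76 and 1.65 CPM per kb in iBAT, goWAT and scWAT. Sgce, a sarcoglycan of the dystrophin complex, stood at 1.81, 4.15 and 3.57. Grb10, an adaptor that restrains insulin and insulin-like growth factor receptors, stood at 0.864, 3.97 and 3.05. Peg3, another zinc finger protein, was at 0.974, 1.11 and 1.49. Dlk1, a membrane protein that holds preadipocytes back from differentiating, was low in each depot, at 0.122, 0.0611 and 0.0622 CPM per kb.

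Differences between depots were tested in a fit of the 12 group means over all 55 libraries, with the 4 conditions weighted equally. Every test is the quasi-likelihood test of edgeR, adjusted by the Benjamini-Hochberg method over all genes tested, and a gene was called at an adjusted p under 0.05. Of the 9 members tested, 7 were called between iBAT and scWAT, 1 higher and 6 lower in iBAT, where 44.6% of all genes were called. Between iBAT and goWAT 7 of 9 were called, 2 higher and 5 lower in iBAT, beside 57.4% of all genes. Between goWAT and scWAT 4 of 9 were called, 2 in each direction, beside 18% of all genes. The median log2 difference of the members was -0.74 for iBAT over scWAT and -0.99 for iBAT over goWAT, against -0.15 and -0.20 for all genes. For goWAT over scWAT it was 0.25, against 0.02.

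**Figure D1:**
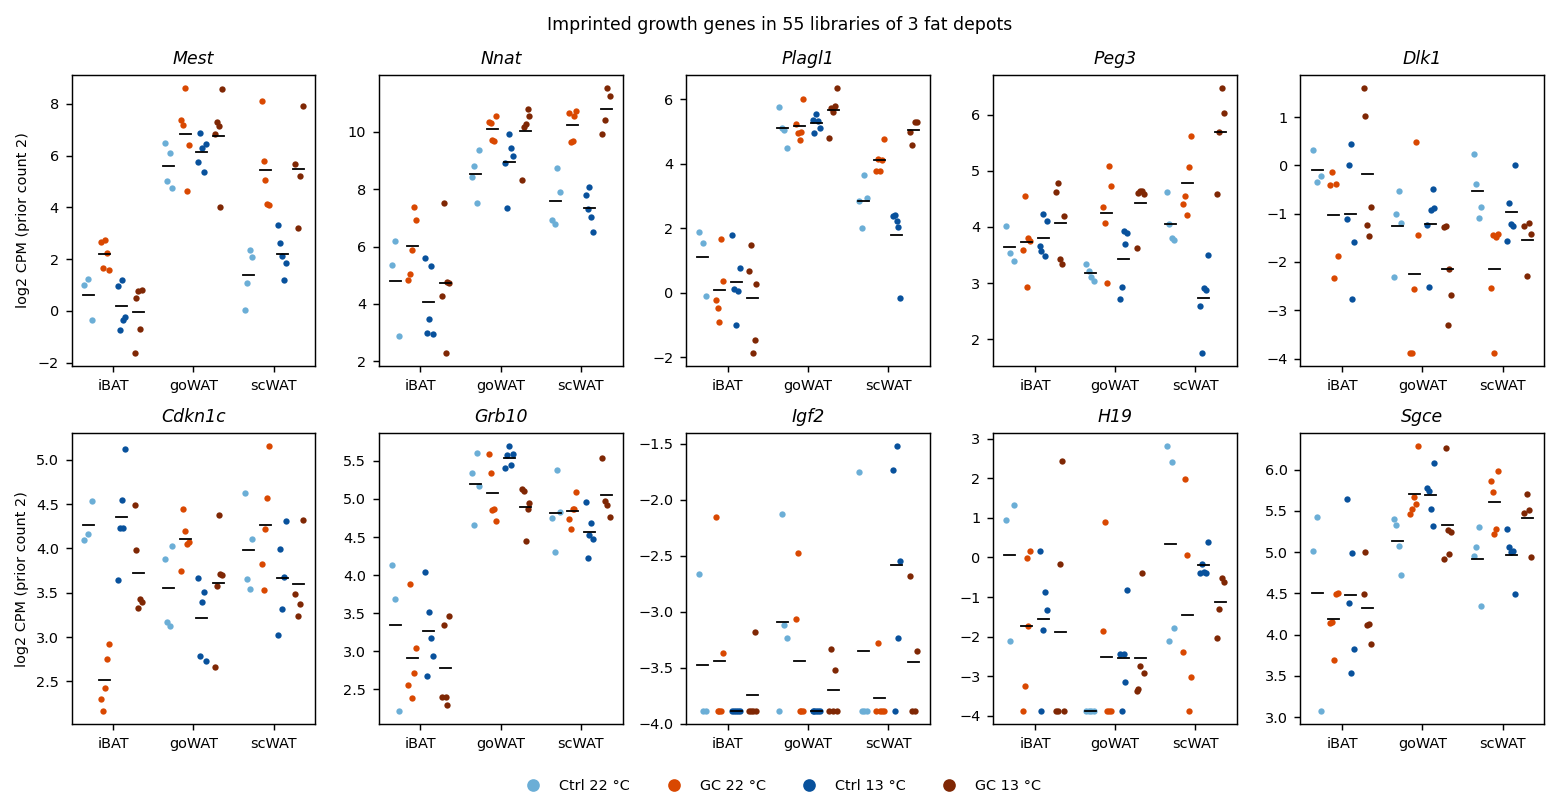
Level of each of the 10 members in the 55 libraries, as log2 CPM with a prior count of 2, by depot on the horizontal axis. Each point is a library, colour gives treatment and temperature, and the black line is the group mean of the log2 values. Mest, Plagl1 and Grb10 sit lower in every iBAT library than in any goWAT library, and Igf2 stays near the floor of the scale.

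Plagl1 showed the most regular order of depots. Its lowest, median and highest levels were 0.205, 1.07 and 3.63 CPM in iBAT, 0.83, 12.9 and 38.9 CPM in scWAT, and 22.5, 37.2 and 81.5 CPM in goWAT. iBAT and goWAT did not overlap, while scWAT overlapped both. The log2 difference was -4.75 ± 0.30 (SE) for iBAT over goWAT (adjusted p = 5.46e-19), -2.94 ± 0.27 for iBAT over scWAT (adjusted p = 4.84e-13) and 1.81 ± 0.24 for goWAT over scWAT (adjusted p = 8.72e-08). Mest had the same order, with 0.255 to 6.61 CPM in iBAT, 0.966 to 278 CPM in scWAT and 16.1 to 394 CPM in goWAT. Its log2 differences were -5.81 ± 0.51 for iBAT over goWAT (adjusted p = 1.59e-13), -3.32 ± 0.44 for iBAT over scWAT (adjusted p = 2.14e-08) and 2.49 ± 0.39 for goWAT over scWAT (adjusted p = 6.56e-06). Averaged over the 4 conditions, both genes thus differed between each pair of depots. In Ctrl, Mest had means of 54.4 CPM in goWAT and 3.06 in scWAT at 22 °C, and 76.2 and 5.17 at 13 °C, without overlap. With GC the ranges of goWAT and scWAT overlapped, at 24.5 to 394 and 16.9 to 278 CPM at 22 °C. At 13 °C with GC they were 16.1 to 381 and 9.15 to 245 CPM.

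Nnat, Grb10 and Sgce were lower in iBAT than in either white depot. Averaged over the 4 conditions, their levels in goWAT and scWAT did not differ by the test. Nnat ran from 4.83 to 182 CPM in iBAT, while goWAT libraries held 162 to 1757 CPM and scWAT libraries 91.0 to 2946 CPM. It was lower in iBAT by a log2 difference of -4.08 ± 0.40 against goWAT (adjusted p = 3.19e-12) and -3.64 ± 0.39 against scWAT (adjusted p = 8.57e-11). Grb10 ran from 4.56 to 17.4 CPM in iBAT, against 21.7 to 51.8 CPM in goWAT and 18.6 to 46.5 CPM for scWAT, so no iBAT library reached a white-fat library. Its log2 difference was -2.01 ± 0.16 against goWAT (adjusted p = 6.22e-16) and -1.65 ± 0.15 against scWAT (adjusted p = 9.99e-13). Sgce differed less, by -0.99 ± 0.16 against goWAT (adjusted p = 1.2e-06) and -0.74 ± 0.17 against scWAT (adjusted p = 0.000239), and its ranges overlapped. For goWAT over scWAT the log2 difference was 0.43 ± 0.33 for Nnat (adjusted p = 0.383), 0.36 ± 0.14 for Grb10 (adjusted p = 0.0765) and 0.25 ± 0.16 for Sgce (adjusted p = 0.288). Grb10 was called in that comparison with DESeq2 (adjusted p = 0.035) and with limma (adjusted p = 0.0153).

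Cdkn1c, an inhibitor of cyclin-dependent kinases, was the member with the most even level between depots when the 4 conditions were averaged. The single conditions differed more. With GC at 22 °C iBAT held 4.42 to 7.52 CPM, below goWAT at 13.3 to 21.8 and scWAT at 11.5 to 35.6. In Ctrl the iBAT means were the highest, at 19.3 CPM at 22 °C and 21.6 at 13 °C. Those of goWAT were 12.1 and 9.56, and those of scWAT 16.4 and 13.3. Over all conditions its range was 4.42 to 34.7 CPM in iBAT, and goWAT (6.25 to 21.8 CPM) and scWAT (8.04 to 35.6 CPM) lay within or close to it. The 3 averaged log2 differences lay between -0.28 and 0.09 with adjusted p from 0.219 to 0.671. Averaged over the 4 conditions, Peg3 was slightly higher in scWAT. The log2 differences were -0.52 ± 0.18 for iBAT (adjusted p = 0.0155) and -0.51 ± 0.18 for goWAT (adjusted p = 0.0346). In Ctrl at 13 °C the order was reversed, with means of 14.3 CPM in iBAT, 11.4 in goWAT and 7.05 in scWAT. In the other conditions scWAT had the highest mean, up to 57.4 CPM with GC at 13 °C. Without the libraries of low quality or rich in other tissues, neither Peg3 difference was called, at -0.24 (adjusted p = 0.539) and -0.52 (adjusted p = 0.175). The difference from goWAT was kept in 50 of 61 alternatives, and 9 of the single libraries, 5 of goWAT and 4 of scWAT, ended it when left out, at -0.44 to -0.50 with adjusted p of 0.0510 to 0.0805. Dlk1 was higher in iBAT, by 1.22 ± 0.42 over goWAT (adjusted p = 0.0118) and 1.03 ± 0.43 over scWAT (adjusted p = 0.0448). The second of these was called in 38 of 61 alternatives, and leaving out any of many single libraries of either depot ended it, with log2 differences no lower than 0.87 and adjusted p up to 0.0913 among these.

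Igf2 was close to undetected, and H19 was low and uneven between libraries. Igf2, the fetal growth factor, had 0 counts in 14 of 18 iBAT, 12 of 19 goWAT and 10 of 18 scWAT libraries, and its highest count was 3, 6 and 17. It passed the filter on low counts in no fit. H19, the noncoding RNA transcribed beside Igf2, reached 5.35 CPM in iBAT, 1.80 CPM in goWAT and 6.99 CPM in scWAT, and it was at 0 in 5, 8 and 1 libraries. It was called lower in goWAT than in scWAT (adjusted p = 0.00132) and than in iBAT (adjusted p = 0.000894). No fold is given for H19 here, because all 4 goWAT Ctrl libraries at 22 °C held 0 counts and the fitted size depends on the prior count. The first of these calls was lost without the libraries of low quality or rich in other tissues (adjusted p = 0.0637).

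Corticosterone raised several members in scWAT. At 22 °C Mest and Nnat were called higher, 2 of 9 members tested, where 6.93% of all genes were called. At 13 °C Mest, Nnat, Plagl1 and Peg3 were called higher, 4 of 9, where 2.59% of all genes were called. No member was called lower at either temperature. The median log2 fold change of the 9 members was 0.67 at 22 °C and 0.47 at 13 °C, against 0.06 and 0.01 for all genes. Since the members are few and were chosen with earlier results known, these medians and the counts of members called describe the list only.

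Nnat rose at both temperatures. At 22 °C the Ctrl libraries of scWAT held 122, 110, 427 and 236 CPM, and the GC libraries 1599, 793, 811, 1492 and 1684 CPM. At 13 °C the Ctrl libraries held 219, 158, 272, 130 and 91.0 CPM and the GC libraries 965, 1356, 2946 and 2411 CPM. Every GC library lay above every Ctrl library at both temperatures. The log2 fold change was 2.49 ± 0.45 (5.61-fold, adjusted p = 0.00182) at 22 °C and 3.45 ± 0.44 (10.9-fold, adjusted p = 0.000187) at 13 °C. The first call was kept in all 17 alternatives tried, with log2 fold changes of 2.26 to 3.02. Blcap, which shares its locus, had log2 fold changes of 0.29 ± 0.29 (adjusted p = 0.604) and 0.91 ± 0.28 (adjusted p = 0.0912).

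Mest had the largest fold changes of the members and the widest spread. At 22 °C its Ctrl libraries held 0.966, 2.05, 5.06 and 4.17 CPM, and its GC libraries 278, 55.3, 33.3, 17.5 and 16.9 CPM. The groups did not overlap, and 1 GC library, at 278 CPM, lay well above the other 4. The group means were 3.06 ± 1.88 CPM (SD, n = 4) and 80.3 ± 112 CPM (SD, n = 5). The log2 fold change was 4.69 ± 1.09 (25.9-fold, adjusted p = 0.0151), and it missed the threshold without Ctrl replicate 2 (4.56, adjusted p = 0.0585). At 13 °C the Ctrl libraries held 9.78, 6.10, 4.24, 2.22 and 3.53 CPM and the GC libraries 50.4, 9.15, 36.9 and 245 CPM. Here 1 GC library lay within the Ctrl range. The log2 fold change was 4.06 ± 0.98 (16.7-fold, adjusted p = 0.0336), and this call was kept in 9 of 17 alternatives. Without GC replicate 5, the library at 245 CPM, it was 2.62 (adjusted p = 0.137). It was also lost without Ctrl replicate 2, 3, 4 or 5, at 3.86 to 4.13 with adjusted p of 0.0740 to 0.0926, and with no filter on low counts (adjusted p = 0.083). Copg2, on the other strand of the same locus, had log2 fold changes of 0.29 ± 0.31 (adjusted p = 0.639) and 0.22 ± 0.31 (adjusted p = 0.815).

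**Figure D2:**
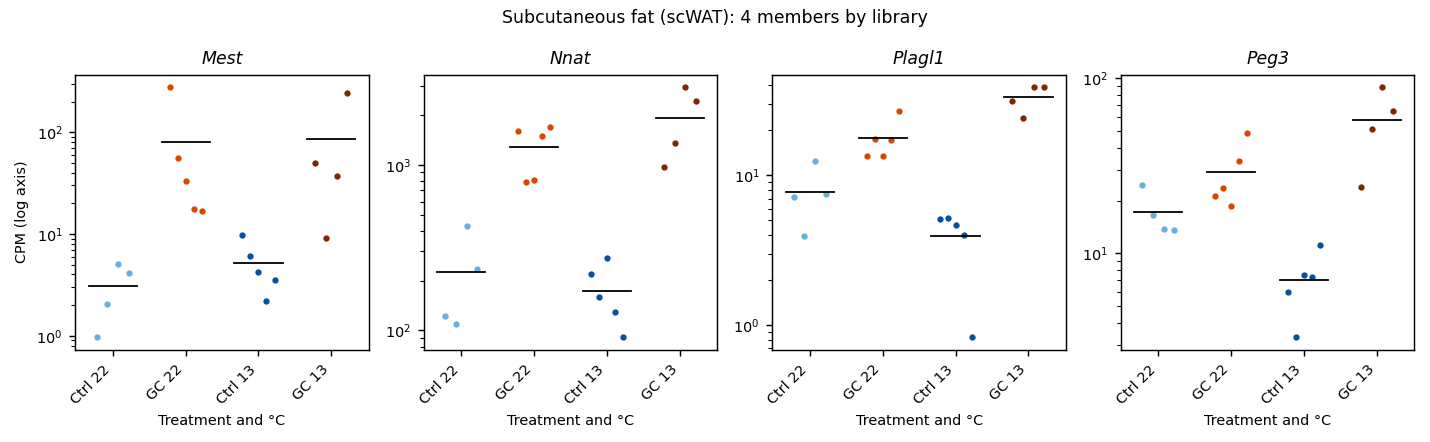
CPM of Mest, Nnat, Plagl1 and Peg3 in the 18 scWAT libraries, on a log axis, by treatment and temperature in °C. Points are libraries and lines are group means of CPM. The GC libraries of Nnat and Plagl1 lie above the Ctrl libraries at both temperatures, and those of Peg3 do so at 13 °C.

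Plagl1 and Peg3 were called at 13 °C and not at 22 °C. At 13 °C Plagl1 stood at 5.12, 5.19, 4.63, 4.00 and 0.83 CPM in the Ctrl libraries and at 31.3, 24.0, 38.7 and 38.9 CPM in the GC libraries. The groups were far apart, with a log2 fold change of 3.03 ± 0.39 (8.16-fold, adjusted p = 0.000186). At 22 °C its Ctrl libraries held 7.13, 3.95, 12.4 and 7.52 CPM and its GC libraries 13.5, 17.6, 13.5, 17.2 and 27.1 CPM. These did not overlap either, with a log2 fold change of 1.16 ± 0.38 that missed the threshold (adjusted p = 0.068). DESeq2 and limma called it (adjusted p = 0.0162 and 0.0291). Peg3 at 13 °C stood at 5.98, 3.31, 7.48, 7.27 and 11.2 CPM in the Ctrl libraries and at 23.9, 51.4, 89.1 and 65.1 CPM in the GC libraries. The groups did not overlap, and the log2 fold change was 3.02 ± 0.38 (8.11-fold, adjusted p = 0.00018). At 22 °C its Ctrl libraries held 24.4, 16.5, 13.8 and 13.6 CPM and its GC libraries 21.2, 23.5, 18.6, 33.5 and 48.9 CPM. These overlapped, and the log2 fold change was 0.74 ± 0.36 (adjusted p = 0.235).

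Other transcripts moved with these groups. The 3 scWAT GC libraries at 13 °C that were rich in epithelial transcripts were replicates 3, 4 and 5. The other one, replicate 1, was the lowest of its group for Nnat and for Peg3. For Mest it was the second highest, and for Plagl1 it was above replicate 3. Krt18 reached 87.1 CPM in this group, and the epididymal gene Crisp1 was at 0 in all of it. Leaving out these 3 libraries and the Ctrl library rich in the same transcripts left 1 GC library, whose spread was assumed to be like that of the other groups, and 1 of 9 members called. Plagl1 then had a log2 fold change of 3.01 (adjusted p = 0.0487), while Nnat was at 2.69 (adjusted p = 0.0831), Peg3 at 1.80 (adjusted p = 0.308) and Mest at 3.21 (adjusted p = 0.812). In the remaining GC library, replicate 1, where the 11 epithelial and epididymal markers summed to 0.177 CPM, the levels were 50.4 CPM for Mest, 965 for Nnat, 31.3 for Plagl1 and 23.9 for Peg3. Each of these was above the highest Ctrl library at 13 °C. The 10 brown adipocyte markers summed to 596 to 2867 CPM in Ctrl and 70.1 to 189.6 CPM in GC at 22 °C, and to 1012 to 3307 CPM and 136 to 614 CPM at 13 °C, so these groups did not overlap. Of this list, Zic1 was at 0 in at least 1 library of 3 of the 4 scWAT groups. The 10 adipocyte markers summed to 74236 to 102940 CPM in Ctrl and 40424 to 66549 CPM in GC at 22 °C. At 13 °C they overlapped, at 50777 to 79436 CPM in Ctrl and 53960 to 153164 CPM in GC. The part of these markers in the rise of the members was not tested.

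In goWAT Mest, Nnat and Plagl1 had smaller fold changes than in scWAT at both temperatures and higher mean levels in Ctrl. Of these, the test between depots given further on called Plagl1 at 13 °C and none at 22 °C with edgeR. Peg3 was lower in goWAT Ctrl than in scWAT Ctrl at 22 °C, at means of 9.04 and 17.1 CPM, and it alone was called at 22 °C, 1 of 8 members tested, where 5.98% of all genes were called. Its Ctrl libraries held 10.1, 9.25, 8.60 and 8.19 CPM and its GC libraries 20.5, 16.7, 7.93, 33.8 and 26.6 CPM. All but 1 GC library lay above the Ctrl range. The log2 fold change was 1.28 ± 0.34 (2.43-fold, adjusted p = 0.0291). This call was kept in 7 of 18 alternatives, with log2 fold changes of 1.02 to 1.49 and adjusted p from 0.00438 to 0.119. It was lost without each of the 4 Ctrl libraries in turn, without GC replicate 4 or 5, and without the 2 libraries of low quality (1.03, adjusted p = 0.119).

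Nnat in goWAT stood at 342, 442, 182 and 657 CPM in the Ctrl libraries at 22 °C and at 1292, 1248, 845, 807 and 1483 CPM in the GC libraries. The groups did not overlap, with a log2 fold change of 1.53 ± 0.46 that just missed the threshold (adjusted p = 0.0527). DESeq2 (adjusted p = 0.00688) and limma (adjusted p = 0.0369) called it. Mest was at 89.3, 32.0, 69.4 and 26.9 CPM in Ctrl and 165, 146, 394, 24.5 and 84.0 CPM in GC, which overlapped (log2 fold change 1.63 ± 0.73, adjusted p = 0.197). Plagl1 differed by 0.15 ± 0.29 (adjusted p = 0.808). At 13 °C no member of 8 was called in goWAT with edgeR, where 1.45% of all genes were called. At an unadjusted p under 0.05 there were 3, and there were 0 with DESeq2 and 3 with limma. These 3 were Peg3 (0.97 ± 0.32, adjusted p = 0.124 with edgeR), Grb10 (-0.62 ± 0.20, adjusted p = 0.121) and Nnat (1.07 ± 0.43, adjusted p = 0.215). Grb10 stood at 42.2, 47.6, 51.8, 43.4 and 48.3 CPM in the Ctrl libraries and at 35.0, 34.2, 21.7, 29.2 and 30.8 CPM in the GC libraries, with no overlap. In goWAT GC replicate 1 at 13 °C, where the brown adipocyte markers summed to 1889.6 CPM against 20.6 to 81.9 CPM in the other 4, Nnat and Peg3 had their lowest levels of the group, at 320 and 12.2 CPM.

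In iBAT the gene that changed was Cdkn1c, and it fell. At 22 °C the Ctrl libraries held 17.1, 17.8 and 23.0 CPM and the GC libraries 4.88, 4.42, 5.29, 6.67 and 7.52 CPM. The highest GC library was below the lowest Ctrl library. The log2 fold change was -1.74 ± 0.33, a level 3.35-fold lower with GC (adjusted p = 0.0138), and Cdkn1c was the 1 member of 9 called, where 0.664% of all genes were called. Leaving out any single library kept the call. It missed the threshold without the 3 libraries rich in muscle transcripts (-1.59, adjusted p = 0.058) and without the 2 rich in macrophage transcripts (-1.96, adjusted p = 0.0609), each of which takes 1 of the 3 Ctrl libraries out. At 13 °C the Ctrl libraries held 12.4, 18.7, 23.3, 18.7 and 34.7 CPM and the GC libraries 22.4, 15.7, 10.0, 10.7 and 10.5 CPM. These overlapped, with a log2 fold change of -0.66 ± 0.30 (adjusted p = 0.437).

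**Figure D3:**
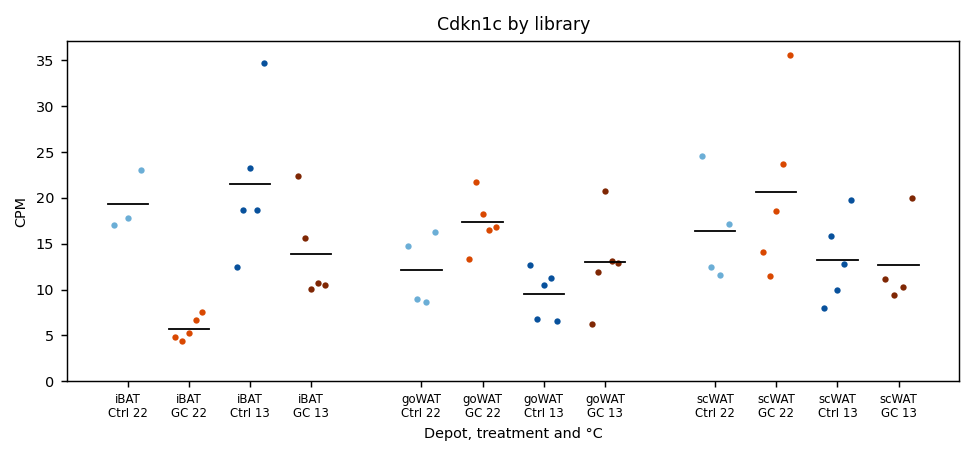
CPM of Cdkn1c in each library, by depot, treatment and temperature in °C. Points are libraries and lines are group means. The 5 iBAT GC libraries at 22 °C lie between 4.42 and 7.52 CPM, below the 3 Ctrl libraries at 17.1 to 23.0 CPM.

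At 13 °C no member of 9 was called for corticosterone in iBAT with edgeR, where 0.728% of all genes were called. There was 1 at an unadjusted p under 0.05, and 0 with DESeq2 and 0 with limma. At 22 °C Mest was at 1.91, 2.26 and 0.708 CPM in the iBAT Ctrl libraries and at 6.30, 3.12, 6.61, 4.70 and 2.89 CPM in the GC libraries. The groups did not overlap, with a log2 fold change of 1.51 ± 0.64 that was not called (adjusted p = 0.357). Nnat spread widely within the iBAT groups, from 4.83 to 182 CPM among the GC libraries at 13 °C, and its log2 fold changes of 1.01 ± 1.02 and 1.15 ± 0.87 were not called (adjusted p = 0.786 and 0.734). Peg3 differed by 0.14 ± 0.37 and 0.33 ± 0.32 (adjusted p = 0.934 and 0.805).

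**Figure D4:**
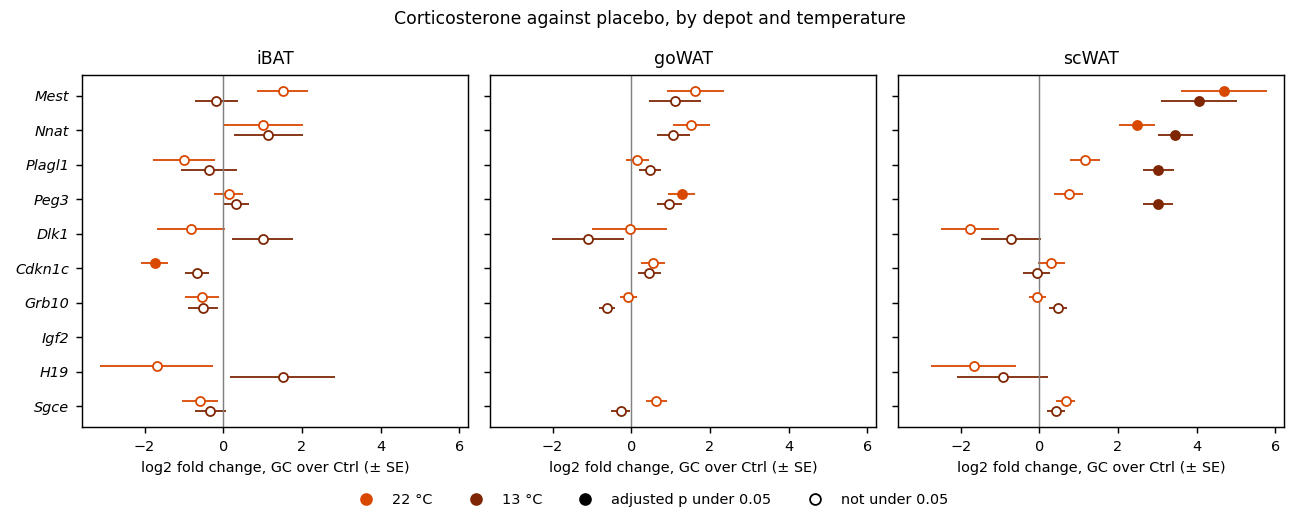
Log2 fold change of GC over Ctrl with its SE for each member tested, by depot, at 22 °C and 13 °C. Filled points passed an adjusted p of 0.05. The filled points are Mest, Nnat, Plagl1 and Peg3 in scWAT, Peg3 in goWAT and, in the falling direction, Cdkn1c in iBAT.

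Whether the response to corticosterone differed between the 3 depots was tested directly. At 22 °C this F-test called 1 of 9 members, Cdkn1c (adjusted p = 0.0153), where 0.742% of all genes were called. Its GC effect in iBAT was lower than in scWAT by a log2 difference of -2.07 ± 0.48, and that in goWAT differed from scWAT by 0.18 ± 0.45. At 13 °C it called 2 of 9, Peg3 (adjusted p = 0.0119) and Plagl1 (adjusted p = 0.0221), where 0.234% of all genes were called. For Peg3 the GC effect was lower than in scWAT by -2.69 ± 0.50 in iBAT and -2.08 ± 0.49 in goWAT. For Plagl1 the differences were -3.42 ± 0.70 and -2.58 ± 0.64. Mest was not called at 22 °C (adjusted p = 0.155) or at 13 °C (adjusted p = 0.133), nor was Nnat (adjusted p = 0.593 and 0.291), so their larger fold changes in scWAT are not shown by this test to differ from those of the other depots. DESeq2 called Mest as well at 13 °C (adjusted p = 0.0266), and limma called Grb10 (adjusted p = 0.0375). The Cdkn1c call was lost without iBAT Ctrl replicate 1 at 22 °C (adjusted p = 0.0553). The calls of Plagl1 and Peg3 were lost without scWAT GC replicate 4 at 13 °C (adjusted p = 0.0554 and 0.0577). All 3 calls were lost without the libraries of low quality or rich in other tissues, with adjusted p of 0.276 for Cdkn1c, 0.664 for Plagl1 and 0.828 for Peg3.

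Housing temperature by itself changed no member past the threshold in any depot. In Ctrl animals 0 of 9 members were called between 13 °C and 22 °C in iBAT, 0 of 8 in goWAT and 0 of 9 in scWAT with edgeR. Of all genes 0.0175%, 0.312% and 0% were called in the same comparisons. At an unadjusted p under 0.05 there were 0, 1 and 2 members, and DESeq2 and limma called 0 in each depot. For scWAT, where edgeR called none of all genes, 2364 genes had an unadjusted p under 0.05, and DESeq2 called 181 and limma 776. The 2 scWAT members were Peg3, lower at 13 °C in every Ctrl library (-1.30 ± 0.36, adjusted p = 0.233), and Plagl1 (-0.95 ± 0.37, adjusted p = 0.319). With GC, 0 of 9 members in iBAT, 0 of 8 in goWAT and 0 of 9 in scWAT were called between temperatures, where 0.00583%, 0.0149% and 8.18% of all genes were called. At an unadjusted p under 0.05 there were 2, 0 and 2 members. DESeq2 called 2 in iBAT and 0 in the other depots, and limma called 1 in scWAT and 0 in the others. The 2 iBAT members were Cdkn1c, which was higher at 13 °C in every library (1.25 ± 0.30, adjusted p = 0.121 with edgeR and 0.0115 with DESeq2), and Mest, which was lower in every library (-2.09 ± 0.55, adjusted p = 0.131 and 0.0116).

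The interaction asks whether the GC effect differed between 13 °C and 22 °C. It called 0 of 9 members in iBAT, 0 of 8 in goWAT and 0 of 9 in scWAT with edgeR, beside 0%, 0.461% and 0% of all genes. At an unadjusted p under 0.05 there were 1, 1 and 2 members. DESeq2 called 0, 0 and 1, and limma 0 in each. For all genes of iBAT and scWAT, 1098 and 1838 had an unadjusted p under 0.05, DESeq2 called 9 and 151, and limma 1 and 7. The member called by DESeq2 was Peg3 in scWAT, whose GC effect at 13 °C exceeded that at 22 °C by 2.28 ± 0.51 on the log2 scale (adjusted p = 0.158 with edgeR and 0.0123 with DESeq2). For Plagl1 the difference was 1.86 ± 0.52 (adjusted p = 0.261), for Nnat 0.96 ± 0.59 (adjusted p = 0.645) and for Mest -0.64 ± 1.29 (adjusted p = 0.925). In iBAT the interaction of Cdkn1c was 1.08 ± 0.45 (adjusted p = 0.765). With edgeR, a call at 13 °C and none at 22 °C is therefore not shown to be a difference between temperatures for these genes, while for Peg3 the tools differed.

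The remaining members were not called for corticosterone in any depot. Dlk1 in scWAT at 22 °C stood at 1.10, 0.703, 0.400 and 0.484 CPM in the Ctrl libraries and at 0.103, 0.299, 0, 0.289 and 0.308 CPM in the GC libraries. These did not overlap, but the values rest on at most 24 counts per library in scWAT, and the log2 fold change of -1.76 ± 0.75 was not called (adjusted p = 0.163). Sgce in scWAT had log2 fold changes of 0.67 ± 0.23 at 22 °C (adjusted p = 0.0893, and 0.042 with DESeq2) and 0.42 ± 0.23 at 13 °C (adjusted p = 0.402). In goWAT at 22 °C Sgce was at 42.2, 40.3, 33.7 and 26.4 CPM in Ctrl and 44.0, 45.9, 50.9, 47.7 and 78.1 CPM in GC, with no overlap and no call (0.63 ± 0.26, adjusted p = 0.156). Grb10 in scWAT differed by -0.05 ± 0.22 and 0.47 ± 0.22 (adjusted p = 0.925 and 0.32). H19 in scWAT at 22 °C ranged from 0.162 to 6.99 CPM in Ctrl and from 0 to 3.87 CPM in GC (-1.68 ± 1.07, adjusted p = 0.386). Its highest GC library, at 3.87 CPM, is the one with the most macrophage and muscle transcripts. Without the 2 macrophage-rich libraries H19 was called lower with GC (adjusted p = 0.0111). The 3 GC libraries then left held 6, 0 and 2 counts, so no fold is given.

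Some members also varied together from library to library within groups. After group means were subtracted, the log2 CPM of Nnat and Plagl1 had a Pearson correlation of 0.66 over the 55 libraries, Plagl1 and Sgce 0.58, Nnat and Sgce 0.52, and Peg3 and Dlk1 0.48. By depot the correlation was 0.72, 0.48 and 0.66 for Nnat and Plagl1 in iBAT, goWAT and scWAT, and 0.67, 0.44 and 0.41 for Plagl1 and Sgce. For Nnat and Sgce it was 0.74 in iBAT and only 0.03 in goWAT and 0.21 in scWAT, and for Peg3 and Dlk1 it was 0.72, 0.33 and 0.46. Mest stood apart from these, at 0.10 with Nnat and 0.09 with Plagl1, although its 12 group means followed theirs at 0.92 and 0.94. These are descriptions, since all genes of a library share its depth and its mix of cells. In iBAT, Sgce followed the adipocyte markers at 0.89 and the stromal markers at 0.79. Nnat followed the stromal markers at 0.81 and the adipocyte markers at 0.75. With the brown adipocyte markers Sgce stood at -0.75 and Nnat at -0.79 there. H19 followed the skeletal muscle markers at 0.81 in iBAT and 0.76 in goWAT, and the macrophage markers at 0.79 in scWAT. Other lists were about as close to H19, with the adipocyte markers at 0.78 in goWAT and the stromal markers at 0.78 in scWAT. In iBAT the Schwann cell and neuron markers stood at -0.82. H19 was at 0 in 8 of the 19 goWAT libraries. Among 7930 genes whose mean log2 CPM was 3 or more, those whose 12 group means were most like Nnat were Mcam, Hip1 and Trps1, at 0.99, 0.99 and 0.98. After group means were subtracted, their correlations with Nnat over 55 libraries were 0.68, 0.31 and 0.47. For Mest they were Trim35, Slc6a13 and Jpt2, at 0.99, 0.98 and 0.98 over the group means and 0.48, 0.31 and 0.71 after subtraction. For Plagl1 they were Hmgn2, Ogn and Eepd1, at 0.99, 0.99 and 0.98, and 0.27, 0.56 and 0.40 after subtraction. For Grb10 they were Glce, Fgf2 and Twsg1, at 0.99, 0.98 and 0.98, and 0.32, 0.39 and 0.40 after subtraction. For Sgce they were Svil, Gpatch8 and App, at 0.98, 0.97 and 0.97, and 0.54, 0.29 and 0.63 after subtraction. The closest gene was at 0.93 for Dlk1 (Prrg2), 0.92 for Cdkn1c (Selenos), 0.88 for Peg3 (Epc1) and 0.86 for H19 (Gpx8), and after subtraction these stood at -0.29, 0.07, 0.32 and -0.16.

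A list of 51 other imprinted genes leaves out the members and includes their neighbours. In scWAT 38 of them were tested. At 22 °C 2 were called (5.26%), a share below the 6.93% of all genes, Klf14 higher (3.85 ± 1.12, adjusted p = 0.0411) and Nap1l5 lower (-1.17 ± 0.31, adjusted p = 0.0231). At 13 °C 2 were called, beside 2.59% of all genes, both higher, Zim1 (3.75 ± 0.74, adjusted p = 0.00652) and Klf14 (4.40 ± 1.13, adjusted p = 0.0385). Klf14, a transcription factor known for its part in fat, lies in the Mest domain, and Zim1 lies beside Peg3. Nap1l5 was higher at 13 °C than at 22 °C with GC (1.41 ± 0.31, adjusted p = 0.0145), in the comparison with 8.18% of all genes called. Klf14 had 0.13 ± 0.141 CPM (SD, n = 4) in Ctrl and 1.94 ± 0.626 CPM (SD, n = 5) in GC at 22 °C. Zim1 had 0.0911 ± 0.0509 CPM (SD, n = 5) in Ctrl and 1.22 ± 0.663 CPM (SD, n = 4) in GC at 13 °C. In goWAT 2 of 42 were called at 22 °C (4.76%), below the 5.98% of all genes, both higher, Ndn (0.94 ± 0.27, adjusted p = 0.0418) and Peg10 (2.59 ± 0.74, adjusted p = 0.0407), the neighbour of Sgce. At 13 °C 0 of 42 were called there with edgeR, beside 1.45% of all genes. At an unadjusted p under 0.05 there were 8, beside 3114 of all 20175 genes. In iBAT 0 of 35 were called at either temperature with edgeR, beside 0.664% of all genes at 22 °C and 0.728% at 13 °C. At an unadjusted p under 0.05 there were 3 at 22 °C and 1 at 13 °C, beside 1903 and 1739 of all 17163 genes. Meg3, which shares the Dlk1 domain, had log2 fold changes of -0.20 ± 0.42 and -0.24 ± 0.43 in scWAT (adjusted p = 0.825 and 0.86). Kcnq1ot1, the noncoding RNA of the Cdkn1c domain, had a log2 fold change of -1.14 ± 0.57 in iBAT at 22 °C (adjusted p = 0.481).

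Among 28 genes of the pathways in which the members act, 4 of 28 were called for corticosterone in goWAT and 2 of 27 in scWAT at 22 °C, beside 5.98% and 6.93% of all genes. At 13 °C 1 of 28 and 2 of 27 were called, beside 1.45% and 2.59%. Igfbp3, a binding protein of insulin-like growth factors, rose in all 4 of these comparisons, by 1.85 ± 0.36 and 1.36 ± 0.33 in goWAT (adjusted p = 0.00362 and 0.04) and by 2.35 ± 0.40 and 2.14 ± 0.38 in scWAT (adjusted p = 0.00107 and 0.00269). Cdkn1a, a kinase inhibitor of the same kind as Cdkn1c, rose at 22 °C by 3.60 ± 0.44 in goWAT (adjusted p = 3.59e-05) and 2.34 ± 0.53 in scWAT (adjusted p = 0.0102). In goWAT its GC effect was smaller at 13 °C than at 22 °C, by an interaction of -2.41 ± 0.54 (adjusted p = 0.0463). Igfbp5, another binding protein, rose in goWAT at 22 °C by 1.57 ± 0.31 (adjusted p = 0.00405), and Cdk2, a kinase of the cell cycle, fell there (log2 fold change -0.68 ± 0.20, adjusted p = 0.0457). In scWAT at 13 °C Sox9, a transcription factor of progenitor and epithelial cells, rose by 2.67 ± 0.65 (adjusted p = 0.0276). This group holds the 3 epithelial-rich GC libraries, without which, and without the Ctrl library like them, the genes called in this comparison went from 493 to 36 of all genes. Between temperatures with GC, 4 of 27 were called in scWAT, where 8.18% of all genes were called. All genes called in that comparison went from 1555 to 4 without the epithelial-rich libraries and to 2 without the macrophage-rich ones, and the part of these libraries in the calls of single genes of the list was not tested. Irs1, a substrate of the insulin receptor, was higher at 13 °C by 2.44 ± 0.57 (adjusted p = 0.0184), Notch1, a receptor, by 1.02 ± 0.26 (adjusted p = 0.0227) and Sox9 by 2.07 ± 0.63 (adjusted p = 0.0462), while Cdkn1a was lower (-1.96 ± 0.52, adjusted p = 0.0291). In iBAT 0 of 26 were called at 22 °C with edgeR, beside 0.664% of all genes. At an unadjusted p under 0.05 there were 14 of the 26, beside 1903 of all 17163 genes. At 13 °C 1 of 26 was called, beside 0.728% of all genes. It was Ccne1, a cyclin (-1.50 ± 0.35, adjusted p = 0.0464).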

How the data were processed

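The deposited tables hold raw counts per gene, 1 table per depot. Per the submitters' processing notes, the authors aligned reads with GSNAP to mm10 and counted them with featureCounts 1.6.3. Not given in the sources used here were the strand setting, the treatment of reads with several matches and the annotation release. Gene symbols came from GENCODE by Ensembl identifier, for 31894 of 31933 genes.

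The members and the gene lists were chosen with earlier results of these data known. Separate fits per depot used edgeR 4.0.16 (R 4.3.3). Genes passed filterByExpr (minimum count 10, minimum total 15) and were scaled by TMM and tested with the robust quasi-likelihood test, with Benjamini-Hochberg adjustment over all genes tested (17163 in iBAT, 20175 in goWAT, 19003 in scWAT). A joint fit over the 55 libraries (22245 genes) gave the differences between depots. A standard error is the log2 fold change divided by the square root of F. CPM values lie on 1 TMM scale over all libraries. CPM per kilobase uses the summed exon length. The report gives the depth of the libraries and the counts behind the lowest genes.

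All 10 members are named. Genes named beside them are those of the lists that passed the threshold, the neighbours of members, and the 3 genes with the most similar group means. Alternatives were DESeq2 1.42.0, limma 3.58.1 with library weights, other size factors, no filter, only the groups compared, a replicate block, leaving out each library, and leaving out libraries of low quality or rich in other tissues, which an earlier report on these files had named. The scripts were tested on simulated data.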

Additional observations from a re-analysis of the deposited data

Results flagged for a closer look

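Single libraries lay far from the rest of their group in 7 of 99 groups of member values checked, where chance gives about 1 in 20. In goWAT with GC at 13 °C, replicate 1 was low for Nnat, at 320 CPM against 1145 to 1757 in the others, and for Peg3, at 12.2 CPM against 23.8 to 25.0. Its brown adipocyte markers were the highest of that group. In the same group replicate 4 was high for H19, at 0.691 CPM against 0.0288 to 0.0822, and replicate 2 for Sgce, at 76.9 CPM against 30.2 to 38.4. In goWAT with GC at 22 °C, replicate 5 was high for Sgce, at 78.1 CPM against 44.0 to 50.9. In scWAT Ctrl at 13 °C, replicate 5 was low for Plagl1, at 0.83 CPM against 4.00 to 5.19, and high for H19, at 1.25 CPM against 0.699 to 0.819.

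The response to corticosterone differed between depots, by the F-test in edgeR, for Cdkn1c at 22 °C (adjusted p = 0.0153) and for Peg3 (adjusted p = 0.0119) and Plagl1 (adjusted p = 0.0221) at 13 °C.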

How the results depend on the processing

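Over 20 counts of members called, 563 of 592 alternatives stayed within 1.5 times the reported count and 29 did not. Of 1417 alternatives for the 29 calls of single members, 1350 kept the call, 67 lost it and 0 changed direction. The cause of each change was not tested. With DESeq2 the count went from 1 to 2 in goWAT at 22 °C, from 2 to 4 in scWAT at 22 °C, from 0 to 2 for 13 °C against 22 °C with GC in iBAT, and from 0 to 1 for the interaction in scWAT. With limma it went from 0 to 3 in goWAT at 13 °C and from 0 to 1 for temperature with GC in scWAT. Other size factors gave 2 in goWAT at 22 °C. For corticosterone at 22 °C, goWAT had 0 without the low-quality libraries, 0 without those rich in epididymal transcripts and 2 without those rich in brown fat transcripts. iBAT had 0 without the muscle-rich and 0 without the macrophage-rich libraries. In scWAT at 13 °C 1 of 4 was left without the epithelial-rich libraries, which leaves 1 GC library. Without all these libraries, goWAT against scWAT went from 4 to 2, and the tests between depots from 1 to 0 at 22 °C and from 2 to 0 at 13 °C.

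Leaving out 1 library at a time gave 0 to 1 members in goWAT and 1 to 3 in scWAT at 22 °C, and 3 to 4 in scWAT at 13 °C. It gave 0 to 1 for temperature with GC in scWAT. It gave 6 to 7 for iBAT against scWAT, 3 to 5 for goWAT against scWAT, and 0 to 1 and 0 to 2 for the tests between depots at 22 °C and 13 °C.

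The replicate numbers did not clearly pair the samples. Over 5000 genes the mean correlation of same-numbered libraries, after group means were subtracted, was 0.090 (iBAT), 0.014 (goWAT) and -0.015 (scWAT). For other numbers it was -0.024, -0.002 and 0.003. Across depots within a condition it was 0.109 over 53 same-numbered pairs and -0.030 for other numbers. Libraries of different depots may share an animal, which the labels do not give, and the joint fit treats them as independent. With the replicate block, 18 of 20 counts stayed within 1.5 times the reported count. In goWAT at 22 °C the block left 0 of 1 and in scWAT at 22 °C 1 of 2, and 25 of 29 single calls were kept. The block ended those of Mest in scWAT at 22 °C (3.73, adjusted p = 0.0575) and 13 °C (3.68, adjusted p = 0.115), Peg3 in goWAT at 22 °C (1.12, adjusted p = 0.0755) and Dlk1 for iBAT against scWAT (1.05, adjusted p = 0.0524).

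Igf2, H19 and Dlk1 had few counts per library, which limits the precision of their values. The iBAT comparisons at 22 °C rest on 3 Ctrl libraries.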
